A study of Mus musculus with 8 samples.

Results

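The genes described here are 34 genes of the ATF4 amino acid response, 12 of them cytosolic tRNA synthetases, measured in AML12 cells with and without irisin. They were taken as a fixed list of gene names and found on the arrays through the accession of each probe. All 34 were found, on 42 probes, among 21612 genes and 39429 probes of the array, and all 34 were well above background on all 8 arrays. AML12 is a hepatocyte line from the liver of a mouse carrying a transgene for human TGF-α. Control cells were cultured without irisin and treated cells with the irisin peptide at 0.5 µg/ml, both for 24 h in DMEM F-12 with 10% fetal bovine serum, and each group was measured on 4 one-color arrays. The labels do not say that replicates came from separate cultures, so the p-values measure only the spread between these samples. The comparison asks whether irisin changed gene expression in these hepatocytes.

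ATF4 is a transcription factor whose protein is made when the initiation factor eIF2 is phosphorylated by a stress kinase, among them GCN2, which senses uncharged tRNA, and PERK, which senses unfolded protein in the endoplasmic reticulum. It pairs with C/EBP family partners on C/EBP-ATF response elements and turns on genes that make non-essential amino acids, supply one-carbon units through folate and charge tRNA with amino acids. Liver cells use this response when amino acids run short or the endoplasmic reticulum is stressed. Much of the control of ATF4 lies in translation, which mRNA arrays do not measure.

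The core of the C/EBP-ATF response element, searched as TGATGNAA on both strands, was present in the promoters of 11 of the 30 genes with an entry in the RefSeq promoter table (GRCm38.p6, 250 bases before to 50 after each start). This is 36.7%, against 4.51% of all 27025 genes of the table. Counting only the bases before the start, the core was present in 8 of the 30, or 26.7%, against 3.91% of all genes. A match describes these letters and is not evidence that ATF4 binds there. Trib3, Iars and Yars held a core only after the start and are not shown. The promoters with a core before the start are shown on the strand of the gene with the core in capitals:
Asns, chr6:7693210-7693248: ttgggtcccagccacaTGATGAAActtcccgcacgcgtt
Gars, chr6:55037955-55037994: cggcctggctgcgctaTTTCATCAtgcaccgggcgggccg
Tars, chr15:11399659-11399689: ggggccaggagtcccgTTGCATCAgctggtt
Aars, chr8:111033714-111033753: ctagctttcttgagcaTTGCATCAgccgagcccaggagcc
Chac1, chr2:119351033-119351072: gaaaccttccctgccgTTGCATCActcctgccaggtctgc
Nupr1, chr7:126625557-126625596: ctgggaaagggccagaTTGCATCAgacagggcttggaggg
Pycr1, chr11:120643828-120643867: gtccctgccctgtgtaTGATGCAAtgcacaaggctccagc
Vldlr, chr19:27216804-27216843: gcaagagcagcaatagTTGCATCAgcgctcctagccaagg

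By role, the core (anywhere in the window) was found in 5 of 8 cytosolic synthetases of the list with an entry, 3 of 6 stress outputs, 2 of 7 amino acid synthesis enzymes, 1 of 4 regulators and 0 of 5 folate enzymes. Of the related lists described last, it was found in 5 of 10 further ATF4 targets, 1 of 13 genes of the eIF2 arm, 0 of 8 other cytosolic synthetases and scaffold genes and 0 of 14 mitochondrial synthetases. Cars, Lars, Nars and Wars had no entry. The core sequence was shared by part of the list and spread over most of its roles.

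Levels below are log2 processed signal relative to the 75th percentile of the same array, so a level of 0 lies at that percentile, and the level of one probe is not set against that of another. A change is the irisin mean minus the control mean. Its standard error (SE) and p come from limma (lmFit and eBayes), with Benjamini-Hochberg adjustment over all 24091 tested probes, and a gene was called when it changed at least 1.5-fold with an adjusted p under 0.05. Where a gene had several probes, the brightest tested one stood for it. The 75th percentile signal ran from 372 to 534 in control and from 682 to 850 in irisin. Each group had a slide and a scan day of its own, so that treatment cannot be told apart from slide or scan. All 8 hepatocyte markers checked were above background on all 8 arrays, and so were 3 of 5 stellate or fibroblast, 2 of 3 endothelial, 1 of 4 leukocyte and 0 of 2 skeletal muscle markers. By signal percentile, the hepatocyte markers lay between 88.6 and 99.9, except Apoa1 at 37.0. Those of the other cell types that were above background on all 8 arrays lay between 12.5 and 52.8.

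None of the 34 genes was called in either direction. Among all 14310 tested genes, 0.531% were called higher and 10.2% lower. Without the fold threshold, 6 of the 34 had an adjusted p under 0.05, namely Cebpg, which was higher in irisin, and Atf4, Sesn2, Asns, Gars and Tars, which were lower. The shares of all tested genes under that rule were 2.65% higher and 17.9% lower. An unadjusted p under 0.05 was found for 3 higher and 8 lower genes, against 5.94% and 23.5% of all tested genes. For 31 of the 34 the 95% interval of the change lay inside 1.5-fold both ways, against 75.2% of all tested genes, and the exceptions were Sesn2, Gars and Mars. The median change of the 34 was -0.08 and that of all tested genes -0.06, and the changes ran from -0.39 for Asns to 0.32 for Mars.

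The replicates did not behave alike. Irisin replicate 2 gave the highest irisin value for 27 of the 34 genes (79.4%), against 50.5% of all tested genes, and the highest value of all 8 arrays for 14 of them (41.2%), against 22.2%. In the related lists described last, it gave the highest irisin value for 72.7% of further ATF4 targets and 64.7% of mitochondrial synthetases. The shares were 54.5% of other cytosolic synthetases and scaffold genes and 53.3% of the eIF2 arm. In the same order, it gave the highest value of all 8 arrays for 36.4%, 11.8%, 30% and 33.3%. The 34 were also brighter, with a median signal percentile of 86.7, against 57.6 for all tested genes. Relative to the control mean, the median of the 34 was -0.16, 0.07, -0.19 and -0.07 on irisin replicates 1 to 4, while that of all tested genes was -0.11, -0.01, -0.13 and -0.04. Without replicate 2 the median change of the 34 was -0.16 and that of all tested genes -0.09. An adjusted p under 0.05 was then found for 1 higher and 9 lower genes of the 34, Atf5, Psat1, Psph and Cars being the added ones, against 5.53% and 22.1% of all tested genes. Leaving out another array instead lowered the count. Without control replicate 1, 2 or 4 or irisin replicate 1, 3 or 4, only Asns and Gars had an adjusted p under 0.05, and without control replicate 3 the genes were Mars, which was higher, and Atf4, Sesn2, Asns and Gars. In these fits the shares of all tested genes ran from 1.66% to 2.37% higher and from 15.2% to 16.2% lower. No gene was called without any single array. Values without replicate 2 are given below where they bear on a gene.

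**Figure D1:**
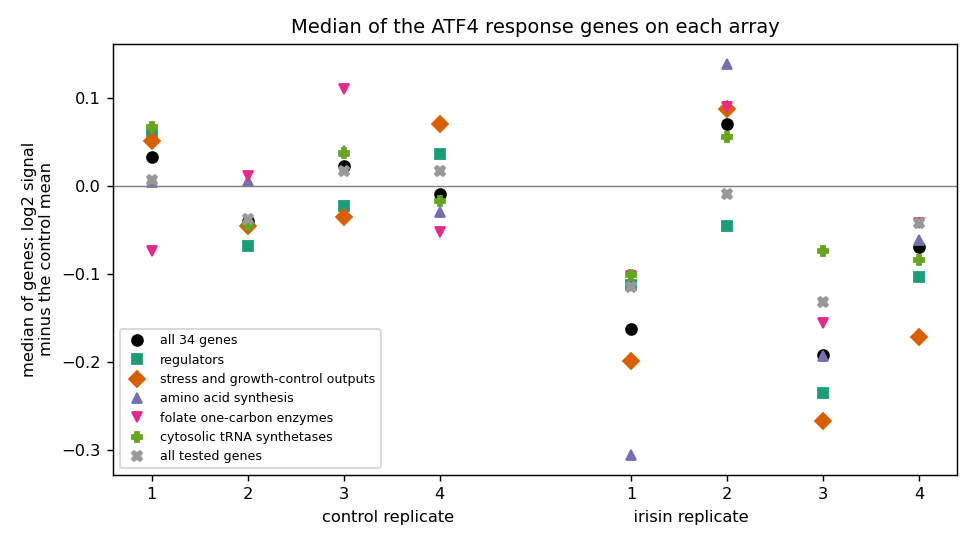
Median over the genes of each role (colored symbols), over all 34 genes (black circles) and over all tested genes (grey crosses) of the log2 signal minus the control mean, for each of the 8 arrays on the horizontal axis. On irisin replicate 2 the median of the 34 genes was 0.07, above 0, and on the other irisin arrays it was between -0.19 and -0.07.

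Atf4 itself, the regulator of the response, was lower in irisin. Its levels were 7.28, 7.15, 7.10 and 7.23 in control and 6.81, 7.09, 6.65 and 6.81 in irisin. The groups did not overlap, but irisin replicate 2 lay just below the lowest control. The change was -0.35 (SE 0.10, 0.784-fold, adjusted p = 0.0298 by limma, exact two-sided permutation p = 0.0286, the smallest that 70 assignments of the arrays allow). Without replicate 2 it was -0.44 (adjusted p = 0.00365), but its adjusted p was over 0.05, up to 0.0864, in 6 of the 8 fits that leave out 1 array. With quantile normalization it was 0.04 (adjusted p = 0.715) and with cyclic loess -0.10 (adjusted p = 0.366), so neither its direction nor its test held across scalings. A second, dimmer probe of Atf4 changed by -0.11 (SE 0.11, adjusted p = 0.530).

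Atf5, a related factor that is under the same translational control, had levels of 5.90, 5.69, 5.75 and 5.82 in control and 5.53, 5.73, 5.36 and 5.49 in irisin. Irisin replicate 2 lay among the controls, and the change of -0.26 (SE 0.10) did not pass the adjustment (adjusted p = 0.0763). Cebpg encodes a C/EBP family protein that pairs with ATF4. Its levels were 1.55, 1.52, 1.55 and 1.59 in control and 1.75, 1.84, 1.79 and 1.74 in irisin. All 4 irisin arrays lay above all 4 controls, and the change was 0.23 (SE 0.07, 1.17-fold, adjusted p = 0.0423). This was the only regulator with an adjusted p under 0.05 also under quantile normalization (0.23, adjusted p = 0.0235) and cyclic loess (0.26, adjusted p = 0.0145), and it was 0.19 with an adjusted p of 0.0637 under normexp background correction. Leaving out single arrays gave an adjusted p for Cebpg between 0.0467 and 0.110, under 0.05 only without irisin replicate 2. Nupr1, a small stress-induced chromatin protein, changed by 0.01 (95% interval -0.17 to 0.20).

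Of the 6 stress and growth-control outputs, Sesn2 was lower and the other 5 had an adjusted p of 0.218 or more. Sesn2 encodes sestrin 2, a leucine sensor that restrains mTORC1. Its levels were 0.05, 0.05, 0.00 and 0.17 in control and -0.51, -0.00, -0.45 and -0.31 in irisin. Irisin replicate 2 lay just below the lowest control and the other irisin arrays lay well below. The change was -0.39 (SE 0.11, 0.764-fold, adjusted p = 0.0301). It was -0.39 under each of quantile normalization (adjusted p = 0.0408), cyclic loess (adjusted p = 0.0291) and normexp (adjusted p = 0.00387), and -0.49 without replicate 2. Among the genes lower in irisin, it was the only one with an adjusted p under 0.05 in all of these, although leaving out other arrays raised it to as much as 0.0881.

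Chac1 breaks down glutathione and is among the genes most induced by ATF4 and CHOP. Its levels were 2.42, 2.31, 2.42 and 2.27 in control and 2.05, 2.53, 2.16 and 2.33 in irisin, and irisin replicate 2 was the highest of all arrays. The change was -0.09 (SE 0.11, adjusted p = 0.630). Trib3, a pseudokinase that feeds back on ATF4, had levels of 4.51, 4.38, 4.38 and 4.43 in control and 4.22, 4.60, 4.14 and 4.27 in irisin. Here too replicate 2 was above every control. For Trib3 the other irisin arrays lay below every control, and the change was -0.12 (SE 0.11, adjusted p = 0.485). Without replicate 2, Chac1 changed by -0.18 and Trib3 by -0.22 (adjusted p = 0.172 and 0.0568). Ddit4, an inhibitor of mTORC1, changed by -0.11 and Stc2, a secreted glycoprotein, by -0.18. Vldlr, the very low density lipoprotein receptor, changed by 0.02 on its brighter probe and by 0.37 (SE 0.10, adjusted p = 0.018) on its dimmer one, so its probes disagreed, with no call on either.

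**Figure D2:**
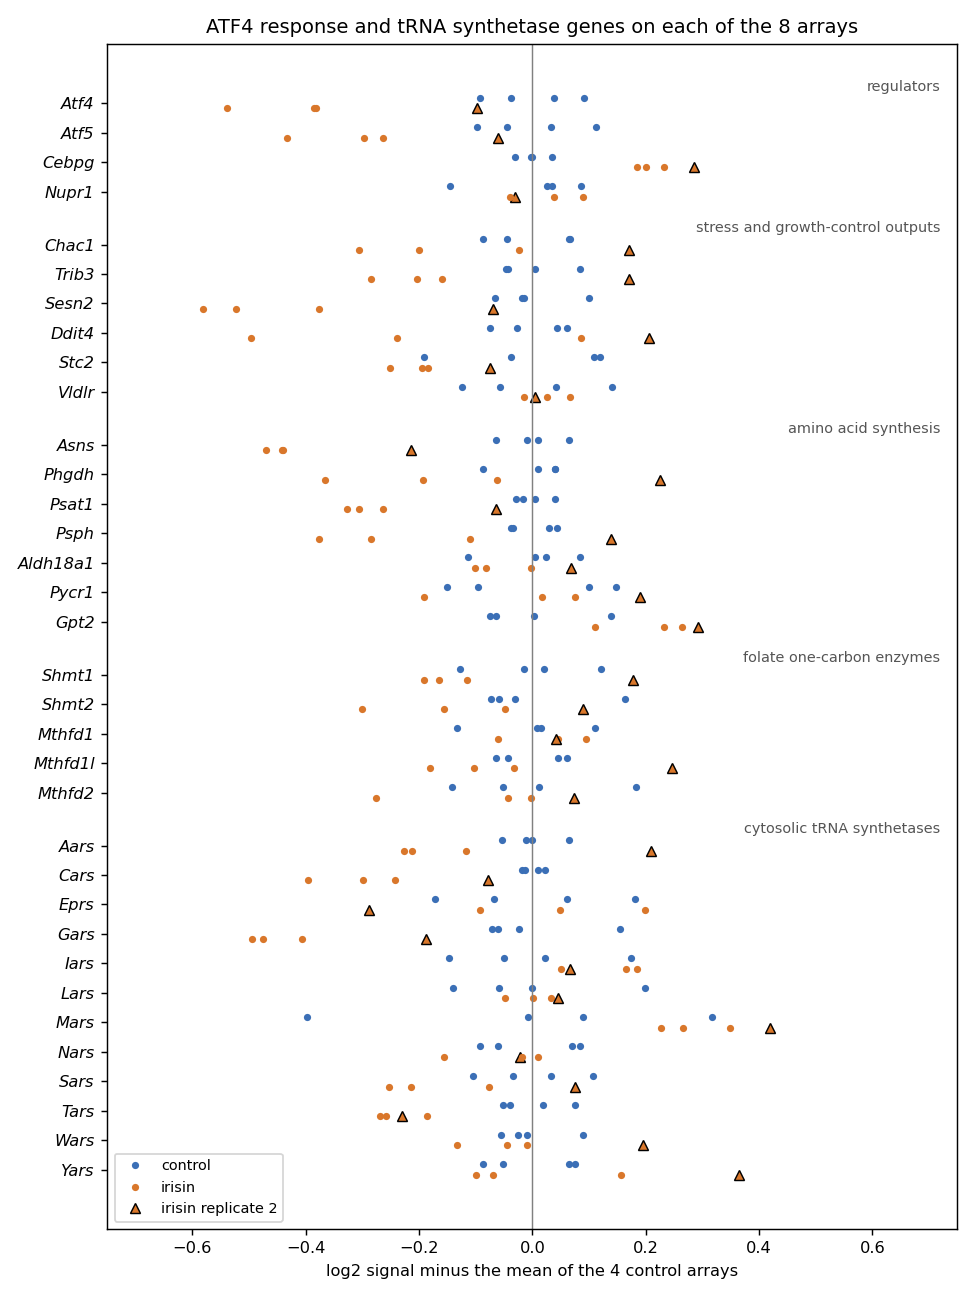
Log2 signal of each of the 34 genes on each array minus the mean of the 4 control arrays, grouped by role, with controls in blue, irisin in orange and irisin replicate 2 as triangles. The triangles lie to the right of the other irisin arrays for 27 of the 34 genes, and the irisin points of Asns, Gars and Tars lie to the left of all their controls.

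Among the 7 enzymes of amino acid synthesis, Asns was lower. Asns encodes asparagine synthetase, the classic amino acid response gene. Its levels were 5.96, 5.84, 5.89 and 5.91 in control and 5.46, 5.69, 5.43 and 5.46 in irisin. All 4 irisin arrays lay below all controls, with replicate 2 the nearest to them. The change was -0.39 (SE 0.08, 0.762-fold, adjusted p = 0.00603, exact permutation p = 0.0286). With each array left out in turn it stayed between -0.45 and -0.37, with an adjusted p of at most 0.0244. With cyclic loess it was -0.21 (adjusted p = 0.0347), with normexp -0.27 (adjusted p = 0.0153) and with quantile normalization -0.14 (adjusted p = 0.118).

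None of the enzymes of serine synthesis passed the adjustment. Phgdh, the first enzyme of serine synthesis from glycolysis, had levels of 5.20, 5.10, 5.23 and 5.23 in control and 4.82, 5.41, 5.00 and 5.13 in irisin, with replicate 2 above every control. Its change was -0.10 (SE 0.12, adjusted p = 0.626). Psat1, the next enzyme, was lower on all 4 irisin arrays than on any control, with a change of -0.24 (SE 0.08, adjusted p = 0.0610), but its dimmer probe changed by 0.10. Psph, the last enzyme, changed by -0.16 on its brighter probe and 0.07 on its dimmer one. The proline enzymes Aldh18a1 and Pycr1 changed by -0.03 and 0.02. Gpt2, the mitochondrial alanine transaminase, changed by 0.22 (SE 0.08, adjusted p = 0.0802), and its adjusted p was 0.0282 with cyclic loess and 0.0226 with normexp.

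The 5 folate one-carbon enzymes had the narrowest range of changes of the 5 roles, from -0.10 to 0.03, and each had a 95% interval inside 1.5-fold. Shmt2, which makes glycine and a one-carbon unit from serine in mitochondria, had levels of 2.46, 2.50, 2.70 and 2.48 in control and 2.23, 2.63, 2.38 and 2.49 in irisin, and the groups overlapped. Mthfd2, the mitochondrial methylene-tetrahydrofolate dehydrogenase, had levels of 2.68, 2.51, 2.36 and 2.45 in control and 2.50, 2.57, 2.22 and 2.46 in irisin. The changes were -0.10 for Shmt2 (adjusted p = 0.539) and -0.06 for Mthfd2 (adjusted p = 0.736). The cytosolic enzymes Shmt1 and Mthfd1 changed by -0.07 and 0.03, and Mthfd1l, which releases formate from mitochondria, by -0.02 (0.15 on its dimmer probe).

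Of the 12 cytosolic tRNA synthetases, which attach amino acids to tRNA, Gars and Tars were lower with an adjusted p under 0.05. Gars charges glycine, in the cytosol and in mitochondria. Its levels were 7.13, 6.91, 6.90 and 6.95 in control and 6.48, 6.78, 6.50 and 6.56 in irisin, with no overlap. The change was -0.39 (SE 0.10, 0.762-fold, adjusted p = 0.0120), and its adjusted p was at most 0.0401 with any single array left out. It was -0.23 with normexp (adjusted p = 0.0417), -0.15 with cyclic loess (adjusted p = 0.117) and -0.01 with quantile normalization (adjusted p = 0.921). Tars, which charges threonine, had levels of 5.08, 5.02, 5.01 and 5.14 in control and 4.80, 4.83, 4.81 and 4.88 in irisin. This gene was even across the irisin arrays, replicate 2 included, and its change was -0.24 (SE 0.07, 0.849-fold, adjusted p = 0.0399). Its adjusted p ran from 0.0358 to 0.115 with single arrays left out and was under 0.05 only without irisin replicate 2. It was -0.24 with normexp (adjusted p = 0.0237), -0.08 with cyclic loess and -0.07 with quantile normalization, where it did not pass (adjusted p = 0.440 and 0.558).

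The other synthetases of the list did not pass the adjustment. Aars, which charges alanine, had levels of 3.72, 3.65, 3.60 and 3.64 in control and 3.42, 3.86, 3.44 and 3.53 in irisin. Replicate 2 was again the highest of all arrays, and the change was -0.09 (SE 0.11, adjusted p = 0.630). Cars, for cysteine, did not overlap between groups and changed by -0.25 (SE 0.09, adjusted p = 0.0555). Mars, for methionine, had levels of 2.11, 1.63, 2.34 and 2.02 in control and 2.25, 2.44, 2.37 and 2.29 in irisin. Its change of 0.32 (SE 0.14, adjusted p = 0.131) was the highest of the 34, and it was 0.18 without control replicate 2, the lowest array. The change of Mars was 0.36 with normexp (adjusted p = 0.0327). It was 0.33 with quantile normalization (adjusted p = 0.101) and 0.37 with cyclic loess (adjusted p = 0.0747). Iars, Lars, Wars and Yars changed by 0.12, 0.01, 0.00 and 0.09, and Nars, Sars and the joint glutamate and proline enzyme Eprs by -0.05, -0.12 and -0.03. Across the whole list, the irisin values of 7 genes lay below all controls (Atf4, Sesn2, Asns, Psat1, Cars, Gars and Tars) and those of 1 lay above (Cebpg), against 19.7% and 4.16% of all tested genes.

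**Figure D3:**
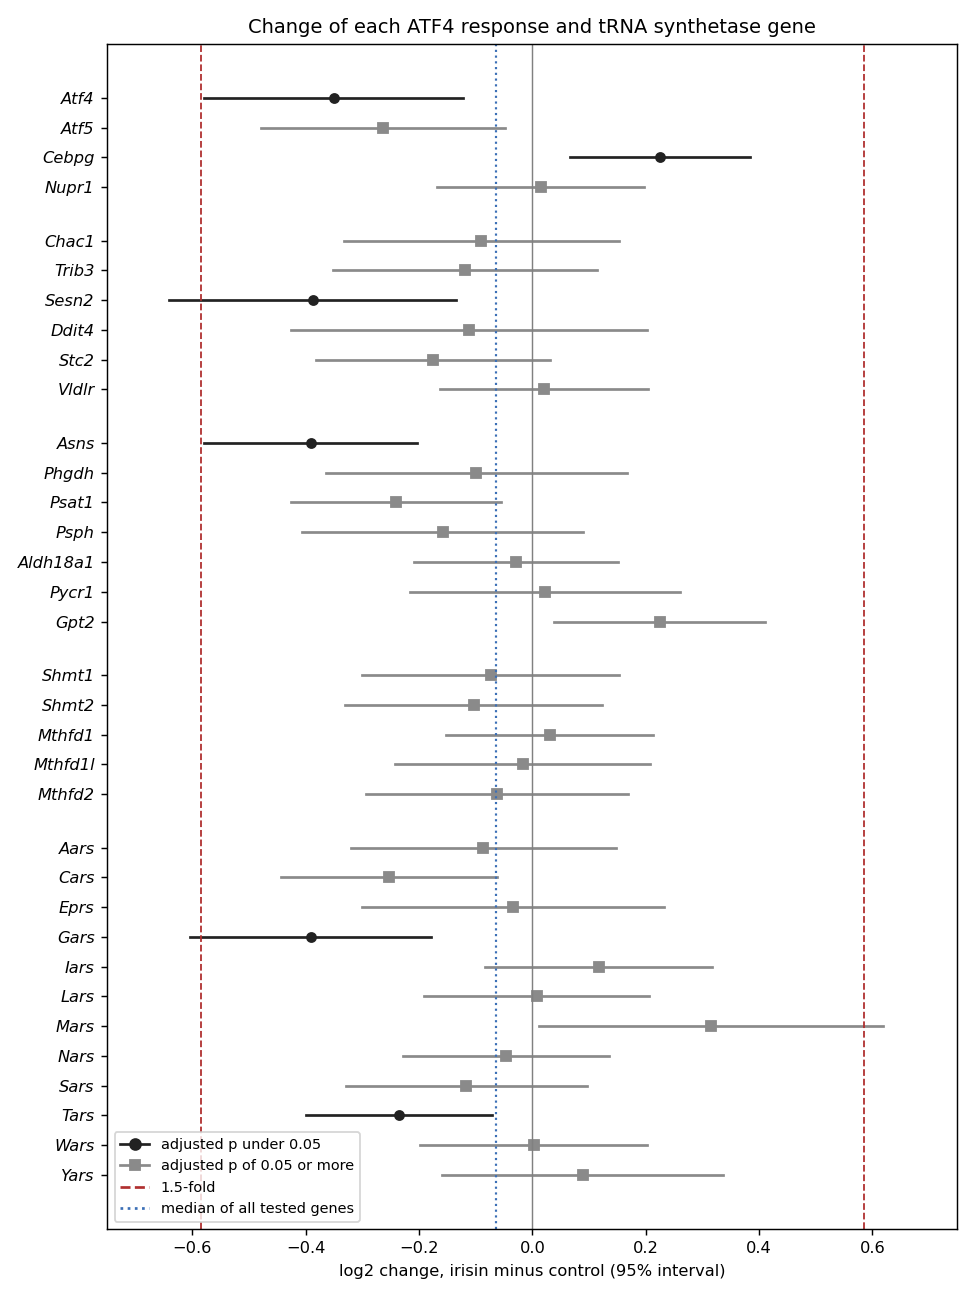
Log2 change (irisin minus control) of each of the 34 genes with its 95% interval, dark where the adjusted p was under 0.05, with 1.5-fold as dashed lines and the median of all tested genes as a dotted line. All points lie between the dashed lines, and the intervals of Sesn2, Gars and Mars cross one of them.

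Most of the genes with the lowest changes, though not Sesn2, were also among the brightest on the arrays. The median signal percentile of the 34 genes was 86.7, against 57.6 for all tested genes, and 11 of the 34 lay in the brightest decile of probes. In that decile the median change of all tested genes was -0.16, against -0.05 in the decile below it. Dim genes shifted more, with medians of -0.60, -0.39 and -0.18 in the 3 dimmest deciles, and none of the 34 lay there, so the shares given for all tested genes cover a range of brightness that the 34 do not. Atf4, Atf5, Asns, Psat1, Cars, Gars and Tars lay in the brightest decile, Sesn2 at the 58.1 percentile and Cebpg at the 73.1 percentile. With quantile normalization and cyclic loess, which level the arrays at each brightness, the median change of all genes in the brightest decile was 0.03 and 0.00, and the median of the 34 was 0.00 and 0.01. Under these scalings Sesn2 and Cebpg had nearly the same changes as with the 75th percentile. Those of Atf4, Atf5, Asns, Psat1, Cars, Gars and Tars were nearer to 0, and for Atf4 and Psat1 above it with quantile normalization. The change of Asns was -0.14 with quantile normalization and -0.21 with cyclic loess.

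**Figure D4:**
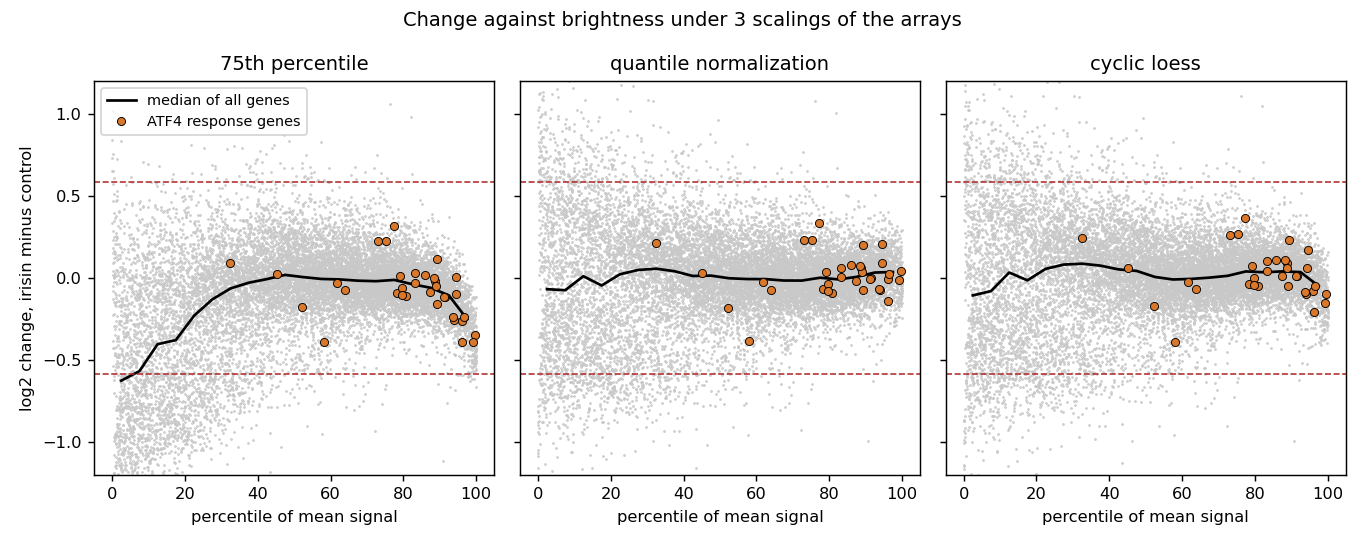
Log2 change (irisin minus control) against the percentile of mean signal for all tested genes (grey, with their running median in black) and the 34 genes (orange) under 3 scalings of the arrays, with 1.5-fold as dashed lines; the most changed genes lie outside the frame. With the 75th percentile the black line falls among the dimmest genes, where none of the 34 lie, and among the brightest, where 11 of them lie, and with the other scalings it stays nearer to 0.

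The medians by role were -0.12 for regulators, -0.12 for stress outputs, -0.10 for amino acid synthesis, -0.06 for folate enzymes and -0.04 for cytosolic synthetases. With cyclic loess they were 0.00, -0.04, -0.03, 0.00 and 0.05. These are descriptions with no test, and the spread of single genes within a role was larger than the distance between the medians.

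Genes of the same pathway outside the list were described in the same way. Each related list is read beside all tested genes, of which 0.531% were called higher and 10.2% lower, with a median of -0.06. Of 11 other cytosolic synthetases and scaffold proteins, 1 was called higher and 0 lower, with a median of -0.10. The call was Dars, which charges aspartate. Its levels were -1.67, -1.84, -2.34 and -1.82 in control and -1.09, -1.30, -0.51 and -1.27 in irisin, and the change was 0.87 (SE 0.19, 1.83-fold, adjusted p = 0.00621). It was 0.88 with quantile normalization and 0.90 with cyclic loess, but 0.55 and short of 1.5-fold with normexp. Eef1e1, a scaffold protein of the multi-synthetase complex also known as AIMP3, changed by 0.55 (SE 0.10, 1.46-fold, adjusted p = 0.00255), with the marked spot of control replicate 4 left out. Aimp1, another scaffold protein, changed by -0.19 (adjusted p = 0.137).

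Of 17 mitochondrial synthetases none was called, with a median of -0.02. Hars2 and Tars2 had an unadjusted p under 0.05, with changes of -0.21 and -0.24 (adjusted p = 0.0815 and 0.108). Of 15 genes for eIF2 kinases, eIF2 and eIF2B subunits and phosphatase arms none had an unadjusted p under 0.05, with a median of -0.09. Among all tested genes, 5.94% were higher and 23.5% lower at that p. The mRNA of the kinases PERK (Eif2ak3) and GCN2 (Eif2ak4) changed by -0.01 and -0.10. Of 12 further ATF4 targets, Fgf21 was above background on none of the 8 arrays and none of the other 11 was called, with a median of -0.05. Among them Cth, which makes cysteine from cystathionine, changed by 0.21 and the translation inhibitor Eif4ebp1 by -0.23 (adjusted p = 0.0805 and 0.128), and Ddit3, which encodes CHOP, by 0.11 (adjusted p = 0.501). Xpot, which exports tRNA from the nucleus, changed by 0.03 on its brighter probe and by 0.63 (adjusted p = 0.0129) on a dim one, which was called.

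**Figure D5:**
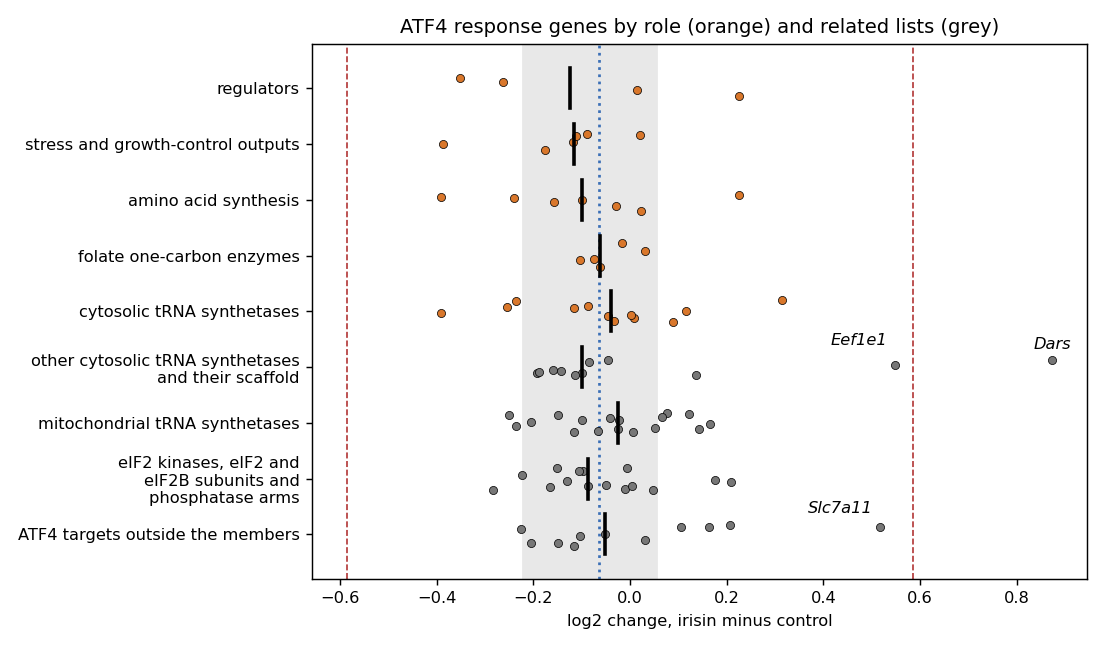
Log2 change (irisin minus control) of single genes in the 5 roles of the list (orange) and 4 related lists (grey), with the median of each list as a black bar, the middle 50% of all tested genes shaded, their median dotted and 1.5-fold dashed. Dars lies beyond the 1.5-fold line and Eef1e1 and Slc7a11 short of it; Slc7a11, the cystine transporter, changed by 0.52 with an adjusted p of 0.174.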

How the data were processed

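Gene expression was measured in AML12 cells (4 control and 4 irisin arrays). The authors labeled RNA with Cy3 and processed the scans with Agilent Feature Extraction 12.0.3.1. The deposited values are signal intensity on a linear scale, background-subtracted and not normalized between arrays. The array annotation in the headers is on mm9, and no position from it is used. Marked outlier spots were left out (at most 0.463% of an array), and spots of a probe were averaged. No spot was saturated. After subtraction of each array's 75th percentile, log2 intensity was tested with limma 3.58.1 in R 4.3.3 on 24091 probes that exceeded background on every array of 1 or both groups. Calls needed 1.5-fold and an adjusted p under 0.05. Accessions were turned into symbols with RefSeq (GRCm38.p6), which lists Mars as Mars1, and promoters came from its promoter table. The list of 34 genes, the related lists and the tests were chosen with earlier results of these data known. Every gene of the list is named. Values on every array were planned for called genes and Atf4, Atf5, Asns, Chac1, Trib3, Phgdh, Mthfd2, Shmt2 and Aars, and those of Cebpg, Sesn2, Gars, Tars, Mars and Dars were added after the values were seen. The change of Slc7a11 was likewise added, without its values on every array. Related genes are named where called, at an unadjusted p under 0.05, or for the kinases and CHOP. The number of arrays limits the precision. The script was tested on simulated data.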

Additional observations from a re-analysis of the deposited data

Results flagged for a closer look

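The level of Asns on irisin replicate 2 was 5.69, whereas the other 3 irisin arrays lay between 5.43 and 5.46. It stood apart from the others by more of the group's range than the 95% limit of Dixon's test for 4 samples allows. It was 1 of 68 groups of 4 checked (34 genes in each of both treatments), and chance gives such a result in about 1 in 20 groups. The change of Asns was -0.39 with this array and -0.45 without it.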

How the results depend on the processing

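The count of genes called stayed at 0 in each direction under normexp, quantile normalization, cyclic loess, median scaling, the value table as deposited, either filter, marked spots kept, an intensity trend, all probes of a gene averaged, a 2-fold rule, the methods' one-way ANOVA of both groups (before and after Benjamini-Hochberg adjustment) and without any single array. Either filter, the intensity trend and the ANOVA leave each log2 change as it was. The largest was 0.39 in size, short of the 0.585 of 1.5-fold, and the 2-fold rule is stricter. The count therefore could not rise under these settings, and its value there is no check. With the adjusted p alone the count was 1 higher and 5 lower, but 2 and 2 with cyclic loess, 2 and 4 with normexp, 1 and 1 with quantile normalization, 0 and 6 with median scaling, 1 and 8 with an intensity trend, and from 0 and 2 to 1 and 9 without single arrays. The shares of all tested genes were 2.65% higher and 17.9% lower, but 7.36% and 9.95% with cyclic loess and 4.21% and 34.4% with normexp. They were 6.51% and 9.86% with quantile normalization, 2.3% and 18.5% with median scaling and 2.99% and 18.4% with an intensity trend. Without single arrays they ran from 1.66% to 5.53% higher and from 15.2% to 22.1% lower. The median change of the 34 was -0.08, and 0.011 with cyclic loess. Scaling to the spike-in probes moved the median of all tested probes to 0.49 and that of the 34 to 0.49. With it 8 of the 34 genes and 7510 of all 24091 tested probes were called higher. No scaling moved both medians to 0.66, with 24 of the 34 genes and 14920 of the 24091 probes called higher. Changes under either are read against that shift. The reversed value was 0.043 for Atf4 with quantile normalization. With spike-in scaling they were 0.22 for Atf4, 0.18 each for Sesn2, Asns and Gars, and 0.33 for Tars. With no scaling they were 0.39 for Atf4, 0.65 for Chac1, 0.62 for Trib3, 0.35 for Sesn2, 0.63 for Ddit4, 0.35 for Asns, 0.64 for Phgdh, 0.71 for Aldh18a1, 0.66 for Shmt1, 0.63 for Shmt2, 0.72 for Mthfd1l, 0.68 for Mthfd2, 0.65 for Aars, 0.70 for Eprs, 0.35 for Gars, 0.69 for Nars, 0.62 for Sars and 0.50 for Tars. The cause of the differences between scalings was not tested. Another 72 of the 714 values of single genes under an alternative had the other sign without a call.

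Same-numbered arrays showed no shared tendency to deviate together (correlations of 0.11, -0.35, -0.13 and 0.17), so no pairing by number was seen. With so few arrays in each group, these correlations cannot exclude such pairing. With the replicate block 0 genes were called and the median was -0.08. The block leaves each change of the 34 as it was, so the count called could not rise. An adjusted p under 0.05 was found for 3 genes (Sesn2, Asns and Gars, all lower), against 6 without the block. The shares of all tested genes with the block were 1.98% higher and 16.2% lower. Normexp was fitted on the median spot signal, and a local background marked as non-uniform (at most 40 spots of an array) was replaced by the median background of the array, a choice made after the data were seen.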
